A study of Drosophila melanogaster with 2 samples.

Results

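The single-gene promoter peaks of CG3847 that lay upstream of the transcription start site (TSS) were 1611 of the 6148 optimal peaks on the major chromosomes of Drosophila melanogaster, or 26.2% (95% exact interval 25.1 to 27.3%). A peak was taken when its summit was within 500 bp of TSSs of exactly 1 protein-coding gene and of no other gene, and lay 1 to 500 bp upstream of the nearest TSS of that gene, with strand taken into account. Within the optimal set, which the authors had already thresholded, this choice used the position of the summit and no signal value. The 1611 peaks, called upstream peaks here, belonged to 1493 genes and made up 44.6% of the 3611 peaks near any TSS and 80.7% of the 1997 peaks near 1 protein-coding gene only. The 386 other single-gene peaks had summits at or downstream of the TSS, 1351 peaks were near TSSs of 2 or more protein-coding genes, 263 were near a non-coding gene, and 2537 had no TSS within 500 bp.

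Chromatin immunoprecipitation and sequencing was done on whole embryos aged 0 to 24 h of the transgenic strain CG3847-GFP, which expresses a CG3847-eGFP fusion protein, with an antibody against GFP after sonication to 200 to 800 bp. The series has 1 group of 2 biological replicates, called replicates 1 and 2 as in the labels. There is thus no comparison of conditions, and the control library to which the labels point was not used here, so fusion-dependent signal and other signal at open promoters cannot be told apart. Whether the embryos kept an unfused copy of CG3847, and what drives the fusion, the labels do not say. The embryos were whole and of all stages, so a peak present in few cells and a weak peak in many cannot be told apart.

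A promoter directs RNA polymerase II to the start of a gene, and the stretch just upstream of an active fly TSS is usually poor in nucleosomes and open to DNA-binding proteins. In Drosophila, widely expressed genes often carry core promoter elements such as Motif 1, bound by the zinc finger protein M1BP, and the DNA replication-related element (DRE), bound by Dref, whereas TATA box and initiator elements are more typical of genes with restricted expression. The peaks are described here for where in this stretch they sit, how strong they are, which sequence lies under them and whose genes they mark.

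Sequences at the summits of strong upstream peaks are shown first, because base composition at the summit differed with peak strength. They are the 2 strongest on each of 4 chromosome arms, among peaks found in all peak sets whose summit lay outside annotated exons, with the peak of CG3847 added. Each runs 5′ to 3′ in the direction of the gene, covers the summit and up to 50 bases on each side, stops where an annotated exon begins, and was read from the Release 6 genome (dm6). Capitals mark runs of at least 8 A or T bases. The peaks are those of CG14100 (chr3L:19590563-19590663, minus strand), Ugalt (chrX:2703853-2703931, minus), ph-p (chrX:2137286-2137386, minus), gish (chr3R:16280684-16280784, plus), CG18549 (chr3R:12449118-12449218, plus), RluA-1 (chr2L:10474458-10474558, minus), Cks30A (chr2L:9330673-9330762, plus), RpL23A (chr3L:1668719-1668819, minus) and CG3847 itself (chrX:6346988-6347088, plus).
CG14100: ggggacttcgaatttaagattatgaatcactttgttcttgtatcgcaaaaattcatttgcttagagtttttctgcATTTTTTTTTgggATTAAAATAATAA
Ugalt: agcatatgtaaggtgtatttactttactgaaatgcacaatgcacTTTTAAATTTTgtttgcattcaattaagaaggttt
ph-p: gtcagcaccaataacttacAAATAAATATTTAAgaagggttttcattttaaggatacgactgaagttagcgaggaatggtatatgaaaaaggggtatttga
gish: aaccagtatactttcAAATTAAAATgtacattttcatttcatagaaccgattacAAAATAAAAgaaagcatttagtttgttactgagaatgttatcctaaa
CG18549: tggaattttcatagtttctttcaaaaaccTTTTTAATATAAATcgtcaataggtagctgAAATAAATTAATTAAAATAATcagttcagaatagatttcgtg
RluA-1: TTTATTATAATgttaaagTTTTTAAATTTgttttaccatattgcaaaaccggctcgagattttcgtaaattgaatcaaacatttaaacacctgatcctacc
Cks30A: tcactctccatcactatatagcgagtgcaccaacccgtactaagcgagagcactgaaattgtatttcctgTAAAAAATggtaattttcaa
RpL23A: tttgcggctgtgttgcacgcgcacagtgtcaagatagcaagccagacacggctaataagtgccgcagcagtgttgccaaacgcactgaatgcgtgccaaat
CG3847: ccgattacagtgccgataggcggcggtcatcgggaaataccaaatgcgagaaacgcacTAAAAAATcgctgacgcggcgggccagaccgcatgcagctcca

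The A and T share of these stretches was 72.3% at CG14100, 72.2% at Ugalt, 67.3% at ph-p, 75.2% at gish, 76.2% at CG18549 and 72.3% at RluA-1. It was lower at Cks30A (61.1%), RpL23A (46.5%) and CG3847 (42.6%). The longest run of A and T was 21 bases at CG18549 and 6 bases at RpL23A.

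A second set shows the core of Motif 1, GGTCACAC or its reverse complement GTGTGACC. This was the 8-base word with the largest excess under upstream peaks over promoter windows, which, unlike the peak windows, all end next to the TSS. Capitals mark the match. The peaks are the strongest on each of 4 chromosome arms, among those found in all peak sets, that hold the word outside annotated exons within 50 bases of the summit: Nse1 (chr2L:6677626-6677690, minus), CG43163 (chr3L:8507219-8507319, minus), Dpm3 (chr3R:13403244-13403344, minus) and unc-119 (chrX:7291321-7291421, minus).
Nse1: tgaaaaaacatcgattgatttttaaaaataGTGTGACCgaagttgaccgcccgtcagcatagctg
CG43163: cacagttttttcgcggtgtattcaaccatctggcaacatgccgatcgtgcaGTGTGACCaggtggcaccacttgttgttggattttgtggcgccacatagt
Dpm3: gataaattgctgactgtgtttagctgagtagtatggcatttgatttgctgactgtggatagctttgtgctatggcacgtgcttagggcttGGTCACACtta
unc-119: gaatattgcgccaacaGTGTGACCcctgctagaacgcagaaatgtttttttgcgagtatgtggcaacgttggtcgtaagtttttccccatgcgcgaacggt

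Signals of these 4 peaks were 434 at Nse1, a gene of the SMC5/6 complex (189 in replicate 1 and 239.8 in replicate 2), 239 at CG43163 (101.2 and 137.6), 312 at Dpm3 (124 and 187) and 310 at unc-119 (112 and 194). All 4 had the higher value in replicate 2, and their summits lay 15, 123, 243 and 73 bp upstream of the TSS.

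The TSS side of the 500 bp window held most of the upstream peaks. The median distance of the summit from the TSS was 99 bp (quartiles 47 and 206 bp), with 813 peaks (50.5%) within 100 bp, 1186 (73.6%) within 200 bp and 12.5% beyond 300 bp. In bins of 50 bp, counted away from the TSS, the number fell from 437 to 376, 199, 174, 119, 105, 66, 56, 46 and 33. The same rule gave 1215 upstream peaks in the own set of replicate 1 and 1313 in that of replicate 2, with median distances of 116 bp (quartiles 56 and 221.5) and 100 bp (lower quartile 47). The nearest bin held 22.0% of the upstream peaks of replicate 1 and 27.0% of those of replicate 2.

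**Figure D1:**
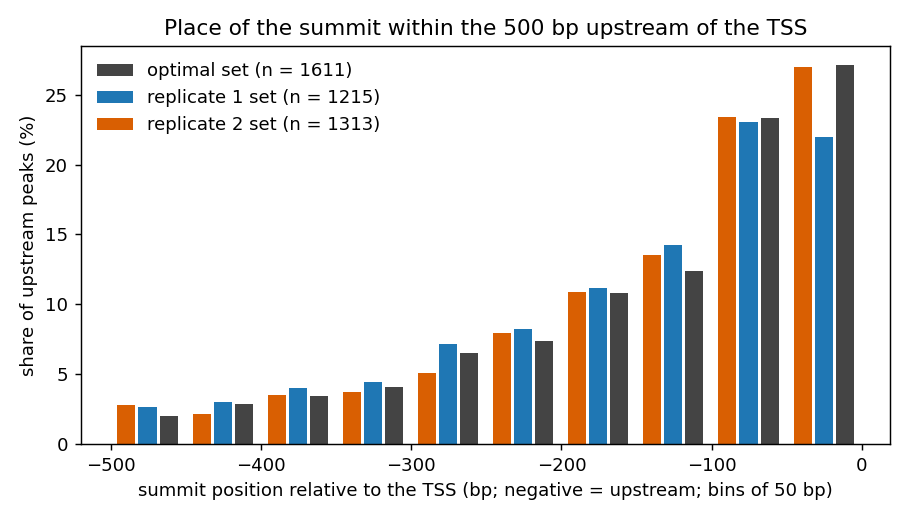
Share of upstream peaks (%, y axis) by summit position relative to the TSS (bp, x axis, bins of 50 bp), for the optimal set and the own sets of replicates 1 and 2. In each set the share is highest in the 100 bp next to the TSS, and the bin next to the TSS holds 27.1% of the optimal upstream peaks, 22.0% in replicate 1 and 27.0% in replicate 2.

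Summit positions moved little between the lists. The summit in the replicate's own set lay a median of 10 bp from the pooled summit in replicate 1 (1158 peaks) and 11 bp in replicate 2 (1269 peaks), and 67.8% and 68.8% were within 20 bp. A shift of up to 20 bp can change the side of the TSS for the 151 upstream peaks (9.37%) that lay within 20 bp of it. On the other side, 95 of the downstream peaks were as close. The upper quartile of the shift was 27 bp in replicate 1 and 25 bp in replicate 2, and the 90th percentile was 45.3 and 46 bp. Some peaks further from the TSS can thus change side too.

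At the limits of the rule, 9 upstream peaks had a summit 1 bp from the TSS, with signals from 65.6 at CG9410 to 155 at tgo, the gene of a bHLH-PAS transcription factor. The value at tgo was 51.8 in replicate 1 and 108 in replicate 2. A further 5 summits fell on the TSS itself and were not taken, among them CG3308 (239.6) and the cytoplasmic actin gene Act5C (98.0). At the far limit, Sqor had the largest distance, 499 bp, with a signal of 143 (94.0 in replicate 1 and 62.6 in replicate 2). The strongest of the 9 peaks at the far limit was that of CG17896 at 497 bp (976, with 600.4 and 379). Just outside, 10 peaks had signals up to 352, led by tej at 509 bp, and the closest was CG9706 at 502 bp with 68.2.

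The strongest upstream peak lay at CG14100 (FBgn0036889, chr3L:19590420-19590816), with a pooled signal of 3804, 2162 in replicate 1 and 1659 in replicate 2, its summit lying in intergenic sequence 89 bp from the TSS. The signal is the peak caller's own value as deposited. The peak of Ugalt, a UDP-galactose transporter gene, followed (chrX:2703691-2704090), with 3121 pooled, 1769 and 1375 in the replicates and a summit at 29 bp. The third was that of ph-p (chrX:2137159-2137541), which encodes the Polycomb group protein Polyhomeotic, with 2206, 1287 and 1004. Its summit lay 481 bp upstream of the nearest TSS, inside an intron of a longer ph-p transcript.

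Next came Fkbp14 (1801, with 1012 and 781), which encodes a peptidyl-prolyl isomerase, and plexus, px (1650.4, with 906 and 736), a gene of wing vein patterning. The casein kinase gene gish had 1604 (883 and 737). Peaks at Atf3 (1383, with 788 and 597) and Sox14 (1341, with 803 and 545), both transcription factor genes, had summits at 212 and 254 bp. Gapdh2, a glycolytic enzyme gene, had 1166 (691 and 469) with its summit at 160 bp.

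The rest of the leading 20 included CG1888, CG18549, CG11857, TRAM, CG31145, MFS10 and CG1635, with pooled signals from 1485 down to 1236, and Tina-1 closed the list at 1157 (656 and 474). In 17 of the 20 the value was higher in replicate 1. The exceptions were Cks30A, a gene for a small Cdk-binding protein (1418, with 556 and 870), CG3847 (1194, with 448 and 745) and Nadk1a, an NAD kinase gene (1185, with 526 and 676). Their summits lay 40, 65 and 11 bp from the TSS, against a median of 148 bp over the 20. Ugalt at 29 bp, CG11857 at 79 bp, TRAM at 84 bp and CG14100 at 89 bp were also close but higher in replicate 1. Cks30A and Nadk1a were the 2 of the 20 with the Motif 1 core within 100 bp of the summit. These 20 genes were taken from the 1011 upstream peaks present in the conservative set and both replicate sets, which the choice itself required.

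Upstream peaks were stronger than peaks on the downstream side of a single gene. The median pooled signal was 155 (quartiles 104 and 253) for the 1611 upstream peaks and 97.2 for the 386 downstream ones, and the medians were 79.5 against 54.6 in replicate 1 and 80.0 against 53.6 in replicate 2. Peaks near several protein-coding genes were higher still, with 176 pooled, 94.2 in replicate 1 and 98.0 in replicate 2. Peaks with no TSS within 500 bp had 109, 64.0 and 51.6, and all optimal peaks 132, 72.1 and 67.0. The ratio of upstream to downstream medians was 1.60 in the pooled set, but 1.04 among the stronger 50% of all peaks. It was 1.19 at a global irreproducible discovery rate (IDR) of at most 0.001. The IDR is low where a peak ranks high, and alike, in both sets compared.

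Upstream peaks were also more often present in the other sets than downstream peaks or all optimal peaks. Of the upstream peaks 1478 (91.7%, interval 90.3 to 93.0%) overlapped the conservative set, against 87.5% of all optimal peaks. Their overlap with the set of replicate 1 was 1158 (71.9%), against 67.9% of all optimal peaks, and with that of replicate 2 it was 1269 (78.8%), against 67.4%. Both replicate sets held 1013 upstream peaks (62.9%, interval 60.5 to 65.2%), against 55.1% of all optimal peaks, 39.6% of the downstream peaks, 71.9% of those near several protein-coding genes and 43.6% of those far from a TSS. Only replicate 1 held 145 upstream peaks, only replicate 2 held 256, and neither set held 197. Among the upstream peaks, presence in both sets rose with pooled signal, from 9.91% of the weakest 323 to 99.1% of the strongest 322. The classes differ in median signal, and their presence at like signal was not compared.

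The balance of the replicates changed with distance from the TSS. Over 1590 upstream peaks with a value in both replicates, the log2 ratio of replicate 1 to replicate 2 had a median of 0.05 and an SD of 0.55, and replicate 1 was higher in 871 (54.8%). In the nearest 50 bp the median log2 ratio was -0.18 and replicate 1 was higher in 36.0% of 431 peaks. In the next bins of 50 bp the share was 45.7%, 60.9%, 68.6%, 70.6% and 72.5%. Between 300 and 350 bp it was 80% of 65 peaks, with a median log2 ratio of 0.33, and in the outermost bin it was 66.7% of 33 peaks. Among peaks with no TSS within 500 bp replicate 1 was higher in 77.2%. The scale of the signals between replicates is not stated, so the point of balance has no meaning by itself, whereas the change along the distance is within the same pair of lists.

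The Motif 1 core and base composition moved with this balance. Replicate 1 was higher in 26.7% of 161 peaks with the Motif 1 core and in 57.9% of 1429 without it. Within 100 bp of the TSS the shares were 26.9% of 145 and 43.5% of 658, and beyond 100 bp they were 4 of 16 peaks and 70.3% of 771. Among the 318 upstream peaks with the lowest G and C content replicate 1 was higher in 72.6%, and among the 318 with the highest in 47.2%. Peaks inside an intron of the own gene had replicate 1 higher in 76.3% of 295, and intergenic ones in 47.8% of 1050. Base content and place in the gene both went with distance from the TSS and were not split by it. Median distances were 202.5 bp for summits in the own intron and 83 bp for intergenic ones. The part of read depth and fragment length in the balance of the replicates was not tested.

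**Figure D2:**
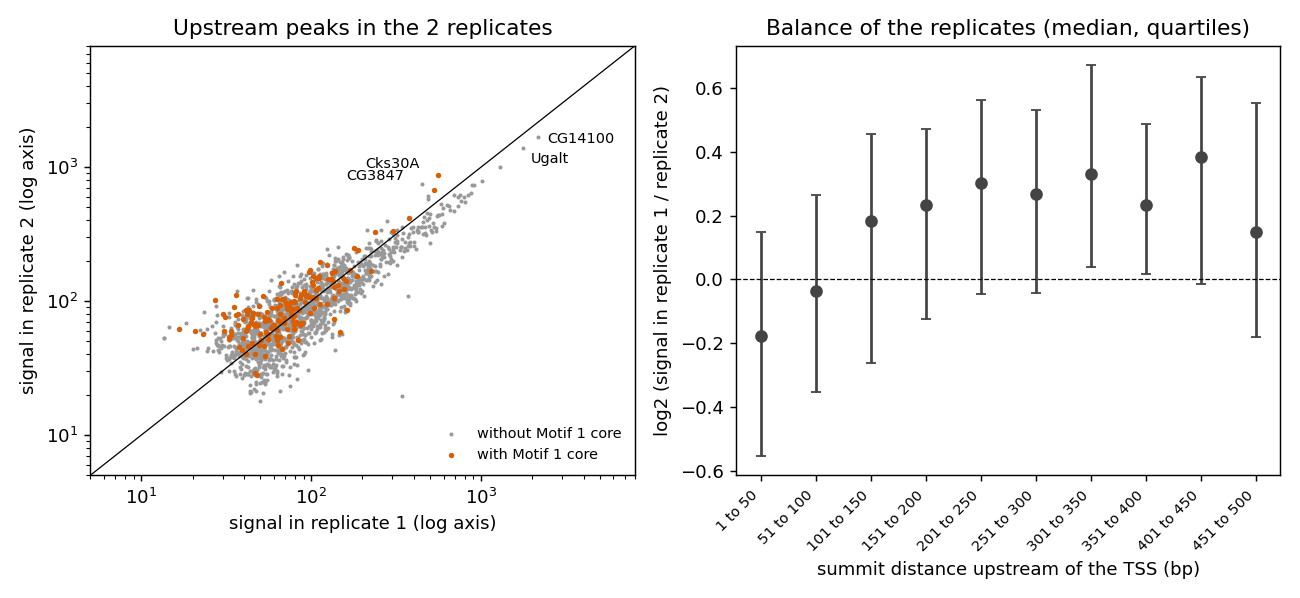
Left, signal of each upstream peak in replicate 1 (x axis, log scale) and replicate 2 (y axis, log scale), with peaks that hold the Motif 1 core in orange and the line of equal values. Right, log2 ratio of replicate 1 to replicate 2 (y axis, median with quartiles) by summit distance from the TSS (bp, x axis). CG3847 and Cks30A lie above the line and CG14100 and Ugalt below it, and the median log2 ratio goes from -0.18 in the nearest bin to 0.33 between 300 and 350 bp.

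The bin with the lowest signal differed between the replicates. The median pooled signal was 132 in the nearest 50 bp, then 161, 176 and 183 in the next bins up to 200 bp, and 137 between 300 and 350 bp. In replicate 1 it went from 62.8 in the nearest bin to 96.9 between 150 and 200 bp and 88.3 between 300 and 350 bp. In replicate 2 it went from 73.8 to 91.7 and 68.1 at the same places, with the lowest median, 63.5, between 400 and 450 bp. In the pooled set and replicate 1 the nearest bin had the lowest median of the 10.

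Strong and weak upstream peaks differed in the sequence at the summit. Split into 5 groups of 322 or 323 by pooled signal, the groups had median signals of 80.8, 113, 156, 223 and 414. The median G and C content of the 51 bp at the summit was 43.1%, 41.2%, 41.2%, 39.2% and 33.3% from the weakest to the strongest group. Averaged by position, G and C at the summit was 43.0% in the weakest group against 35.2% at 100 bp further upstream, with 42.0% at 100 bp towards the gene. In the strongest group it was 34.5% at the summit, 36.5% at 100 bp upstream and 44.9% at 100 bp towards the gene, so the lowest of these 3 values was at the summit. Windows of all 13968 protein-coding promoters, centred 99 bp upstream of the TSS, had 37.0%, 36.5% and 43.6% at these places.

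**Figure D3:**
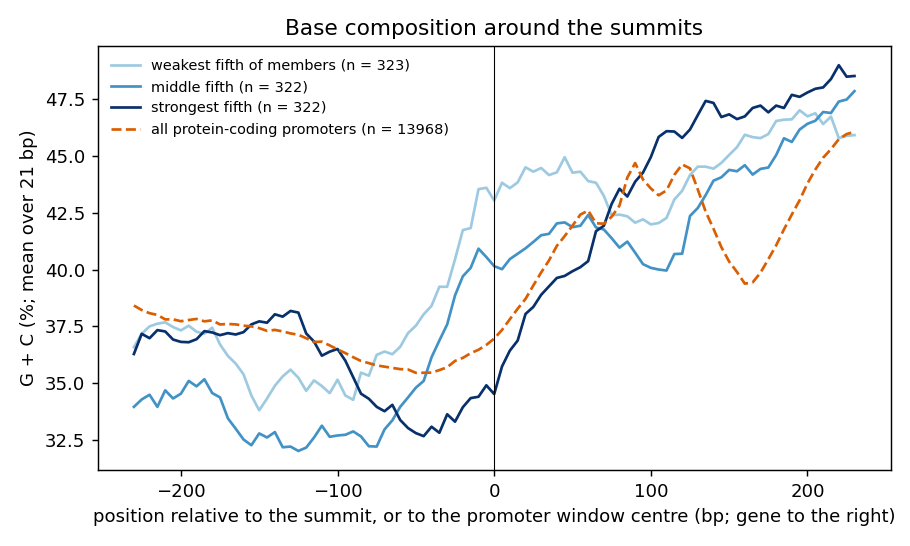
Mean G and C content (%, y axis, over 21 bp) by position relative to the summit (bp, x axis, gene to the right) for the weakest, middle and strongest of the 5 signal groups of upstream peaks, and for all protein-coding promoters around a point 99 bp upstream of the TSS. At the summit the weakest group is at 43.0%, the middle group at 40.2% and the strongest at 34.5%, beside 37.0% in promoters.

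Runs of at least 8 A or T bases were present within 50 bp of the summit in 52% of the weakest group and 72% of the strongest, and in 991 of all upstream peaks (61.5%). The share was 65.3% in promoters, 44.3% at downstream peaks and 65.2% at peaks far from a TSS. The strongest group was thus above promoters and the weakest below them, and the upstream peaks as a whole were not above promoters. Summits of the strongest group also lay further from the TSS, at a median of 142 bp against 86, 80.5, 90 and 97 bp in the others. Their peaks were narrower, with a median width of 245 bp against 390 bp in each other group. Over all optimal peaks 390 bp was the median and both quartiles of the width, so it is not read as an extent of binding.

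The Motif 1 core GGTCACAC was found on either strand in 162 of the 1611 windows that reach 100 bp to each side of the summit (10.1%, interval 8.63 to 11.6%). It was present in 3.78% of all 13968 protein-coding promoter windows of the same length and in 2.01% of the 9638 promoters of genes with no peak near a TSS. Those windows were centred 99 bp upstream of the TSS and ended next to it, so they could not hold matches further into the gene. Under upstream peaks, 53 of the 162 matches nearest to the summit lay downstream of the TSS. The shares thus cover unlike stretches, and their difference includes window placement. In the own sets of replicates 1 and 2 the upstream peaks held the core in 8.31% and 12%. Its share was 10.1% at downstream peaks and 11.1% at peaks near several protein-coding genes, so it was not particular to the upstream side, and it was 0.591% at peaks far from a TSS. Seen from the promoters, only the 10282 genes where the rule could place a peak were counted, although 528 of all 13968 promoter windows held the core. Among these 10282 genes, 104 of 275 with the core in the promoter window had an upstream peak (37.8%, interval 32.1 to 43.8%). Without the core it was 1389 of 10007 (13.9%).

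Matches to Motif 1 lay close to the TSS. The core was present in 17.8% of upstream peaks within 100 bp of the TSS and in 2.13% of those beyond. The match nearest to the summit lay at a median of 18 bp upstream of the TSS, 53 of the 162 were downstream of the TSS, and the median distance to the summit was 35 bp. It ran in the direction GGTCACAC along the gene in 110 of 162 (67.9%). Peaks with the core had a median signal of 146 against 157 without it (68.8 against 81.1 in replicate 1 and 80.6 against 79.9 in replicate 2). By strength, the core was present in 6.19%, 14.6%, 13%, 11.8% and 4.66% of the groups from weakest to strongest.

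The DRE, TATCGATA, was present in 142 windows (8.81%) beside 7.38% of promoters, 5.20% of promoters without a peak and 13.3% of peaks near several protein-coding genes. The core of Motif 7, CATCNCTA, was present in 116 (7.20%) beside 3.72% of promoters. Both were also found mostly near the TSS, the DRE in 14.3% of peaks within 100 bp and 3.26% beyond, and Motif 7 in 11.3% and 3.01%. Any of the 3 elements was present in 368 windows (22.8%), beside 1901 promoters (13.6%), so most upstream peaks held none of them in this window. Promoter windows again ended next to the TSS, whereas 18 of the 142 DRE matches and 34 of the 116 Motif 7 matches lay downstream of it. The Motif 1 core and the DRE occurred together in 17 windows of upstream peaks.

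**Figure D4:**
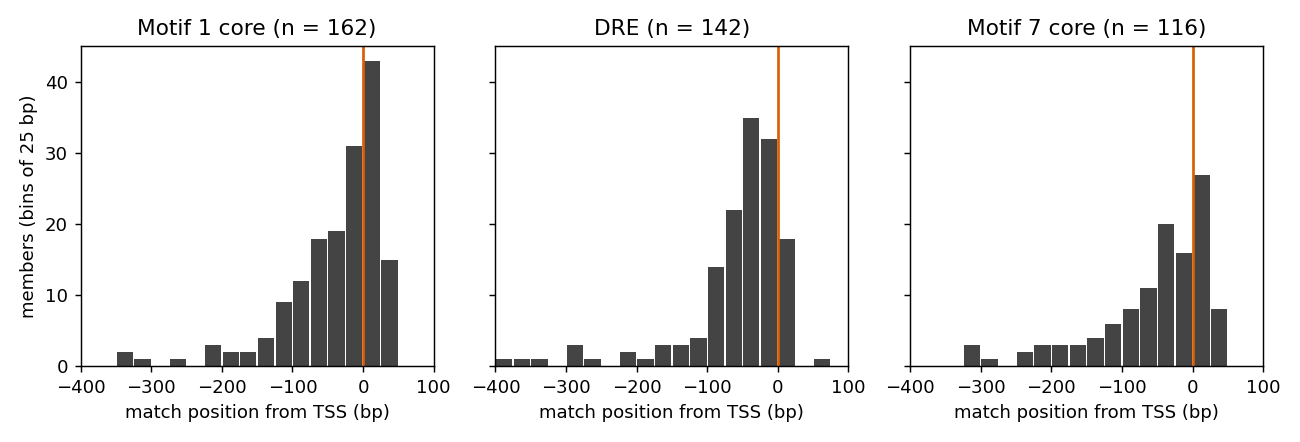
Number of upstream peaks (y axis) by the position of the match nearest to the summit, relative to the TSS (bp, x axis, bins of 25 bp, TSS as a line), for the Motif 1 core, the DRE and the Motif 7 core. Matches within 400 bp upstream are drawn, and most matches of each element lie within 100 bp upstream of the TSS or just past it, with medians 18, 41 and 37 bp upstream.

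Of the other words searched, some were more and some less frequent than in promoters. The promoter windows were the same as for Motif 1, so these shares too cover unlike stretches. The palindrome CAGCTG was present in 14.3% of upstream peaks and 11.6% of promoters, and the E2F-type word TTTGGCGC in 2.98% and 1.69%. GAGAGAG, the word bound by GAGA factor, was present in 5.65% and 4.72%, with 10.8% in the weakest group of peaks and 4.35% in the strongest. The TATA word TATAAA was less frequent than in promoters (28.6% against 36.9%), as was the initiator word TCAGTT (12% against 15.2%). Both were counted anywhere in the window. Under upstream peaks, the TATAAA match nearest to the summit lay at a median of 154 bp upstream of the TSS (quartiles 227 and 96 bp). For TCAGTT the median was 114 bp upstream. Promoter windows that end next to the TSS cannot hold a word that runs across it. These shares thus cannot show whether TATA box or initiator elements were rarer under upstream peaks. CAGGTAG, the word bound by the early embryonic activator Zelda, was present in 9 windows (0.559%) beside 1.17% of promoters. The longer Ohler motif 6 was present in 1.86% of upstream peaks and 1.83% of promoters.

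All 8-base words were also ranked by their excess over promoters on 2L, 3L, X and 4 (903 upstream peaks and 7672 promoters) and then read on 2R and 3R (708 and 6296). GGTCACAC came first, with 9.75% of peaks and 3.85% of promoters, and on the held-out arms it had 10.5% and 3.70%. AGTGTGAC, which overlaps its reverse complement GTGTGACC, came second. CAACACTG had 6.42% and 2.12%, and 5.65% and 2.59% on the held-out arms. CACAGTGG had 3.43% and 0.847%, and 4.38% and 0.985% there, and AGTGTGGC had 3.88% and 1.15%, and 4.24% and 1.14%. Of the 20 leading words, 19 were also in excess on the held-out arms, and 5 consisted of A and T only. Both sets of arms used the promoter windows that end next to the TSS. A word frequent past the TSS can thus be in excess on both by placement, which the held-out arms cannot show. On the held-out arms the A and T word ATTTAAAA had 12% of peaks and 10.5% of promoters, and AACAGCTG, which holds the palindrome CAGCTG, had 5.65% and 5.05%.

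Most summits lay between genes. Of the 1611, 1064 (66.0%) were intergenic with a median distance of 83 bp, and 298 (18.5%) were in an intron of the own gene, upstream of an inner TSS, with a median of 202.5 bp. Another gene's intron held 107 (6.64%), an exon of a longer transcript of the own gene 78 (4.84%), another gene's 3′ UTR 34, its 5′ UTR 3, its coding exons 2 and its other exons 25. A summit inside another gene was counted there even where it also lay inside the own gene, as at MFS10 and TRAM. The counts for the own gene thus leave such summits out. Median signals were 156 for intergenic summits and 155 for those in the own intron. In replicate 1 the medians were 77.3 and 90.5, and in replicate 2 they were 81.8 and 74.2, so the order differed between replicates.

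Most genes had a single upstream peak. Of the 1493 genes 1387 had 1, 97 had 2 and 9 had 3 or more, and 76 also had a downstream peak. Rtnl1, a reticulon gene of the endoplasmic reticulum, had the most with 5, at different TSSs, with signals of 1071, 609, 261, 151 and 145. Where a gene had 2 or more, the second peak had a median of 0.513 times the signal of the first. Among the upstream peaks 68 overlapped another one, and each of the 17 with a signal under 20 overlapped a stronger optimal peak. One of these was at CTCF, with 3.69 pooled but 33.8 and 34.3 in the replicate lists, where the strongest overlapping ranked peak was read.

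Of the 10282 protein-coding genes where the rule could place a peak, 14.5% had one. Genes with an upstream peak were longer than the other eligible genes, with a median of 4944 bp against 2072 bp, and fewer of them had only 1 annotated TSS, 51.9% against 73.0%. More TSSs give a gene more places for a peak. The TSS lay inside another gene in 11.7% of them against 21.7% of the others, and such genes were given no upstream neighbour. With these genes in the total, the nearest gene upstream was on the same strand in 56.1% against 46.7%. It was on the opposite strand in 32.2% against 31.6%. Among genes with an upstream neighbour, that neighbour was on the same strand in 838 of 1318 against 4102 of 6876. Across chromosomes the share of optimal peaks that were upstream peaks was 24.5% on 2L, 28.1% on 2R, 24.5% on 3L, 25.9% on 3R and 28.3% on X. Chromosome 4 had 1 upstream peak and Y none.

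Genes of cell growth and division were among those with the highest shares of upstream peaks. Cell cycle and replication genes had one in 12 of 24 eligible cases (50%, interval 29.1 to 70.9%), led by Dp, the dimerization partner of E2F (479.9, with 286 in replicate 1 and 195 in replicate 2), the mitotic kinase gene polo (357, with 178 and 183) and CycE, the cyclin of S phase entry (286, with 145 and 139). Cytoplasmic ribosomal protein genes had one in 24 of 49 (49%, interval 34.4 to 63.7%), with a median signal of 262 beside 160.2 over all genes with an upstream peak. The medians were 122 against 80.2 in replicate 1 and 142 against 81.3 in replicate 2. Their summits lay close to the TSS, at a median of 44.5 bp against 94 bp, and 6 of the 24 held the Motif 1 core. RpL23A led with 1054 (483 and 577), followed by RpL30 (636, with 303 and 330.3) and RpL11 (422, with 205 and 205).

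Translation factors had an upstream peak in 9 of 36 eligible cases (25%) with a median signal of 309, led by eIF3c (469, with 263 and 218), eEF1gamma (463, with 248 and 221) and eIF5B (389, with 224 and 166). Aminoacyl-tRNA synthetase genes had 4 of 13, led by CysRS (149.9), and genes of tRNA and rRNA processing and the nucleolus 2 of 8, led by Ns3 (99.2). Mitochondrial ribosomal protein genes had 5 of 20, led by tko (215), mRpL4 (182) and mRpL9 (152). Genes of the respiratory chain and ATP synthase had 10 of 50 (20%), led by ATPsynB (324), ND-B22 (275) and RFeSP (237), and those of mitochondrial import 1 of 13. The intervals of all of these lists contained 14.5%.

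Genes of membrane traffic and general transcription also had high shares. The membrane trafficking list (exocyst, Sec, COP, SNARE and Vps genes) had 15 of 34 (44.1%, interval 27.2 to 62.1%), with summits at a median of 34 bp, led by Syx4 (387), deltaCOP (368) and Vti1b (297). Rab, Arf and Arl GTPase genes had 8 of 25 (32.0%, interval 14.9 to 53.5%), led by Sar1, the GTPase of COPII vesicles (1088, with 483 and 610.2). Rab5 had 259.8 and Rab18 had 186. Vacuolar ATPase genes had 6 of 23 (26.1%, interval 10.2 to 48.4%), led by Vha16-1 (323). The general transcription and Mediator list had 12 of 34 (35.3%, interval 19.7 to 53.5%), led by Polr2F, a subunit of RNA polymerase II (471, with 245 and 227), Taf4 (364) and Taf9 (249).

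Among regulators, the Polycomb and trithorax list had 5 of 17 (29.4%, interval 10.3 to 56.0%), led by ph-p, esc (271, with 111 and 154) and Pc (194, with 97.4 and 93.0). Zinc finger regulators had 5 of 15, led by CG3847, Phs (475, with 242 and 226) and Kah (387, with 221 and 165). Insulator and architectural protein genes had 2 of 14, mod(mdg4) with 65.7 and CTCF with the weak peak given above. The proteasome had 4 of 29, led by Prosalpha5 (229.8), splicing and mRNA processing 1 of 7 (B52, 118) and the nuclear pore 1 of 10 (Nup107, 89.6). These intervals contained 14.5% as well.

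Lists of developmental and tissue-restricted genes had shares from near 14.5% down to 0, apart from muscle genes. Hox and segmentation genes had an upstream peak in 4 of 29 cases (13.8%), among them nkd, a feedback inhibitor of Wingless signalling (252), bcd, the anterior determinant (221), and cad (115). Muscle genes had 6 of 24 (25%), with summits far from the TSS at a median of 299 bp, led by Msp300 (664, with 318 and 336), the titin-like gene sls (463, with 226 and 231) and how (184). Neuronal differentiation genes had 1 of 27, fne with 72.2. Cytochrome P450 genes had 3 of 80 (3.75%), led by Cyp317a1 (218). Odorant binding protein genes had 1 of 41, Obp99b with 173 (115 in replicate 1 and 57.2 in replicate 2).

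No upstream peak was found at 161 eligible chemoreceptor genes (interval up to 2.27%), 115 cuticular protein genes (up to 3.16%), 39 genes of serine proteases and immune peptides (up to 9.03%) or 31 glutathione S-transferase genes (up to 11.2%). Of the 27 lists, 14 had a share above 14.5%. The interval lay wholly above it for 5 and wholly below it for 6. The 5 above were cell cycle and replication, cytoplasmic ribosomal proteins, membrane traffic, general transcription and the Rab, Arf and Arl GTPases, of which the last had a lower bound of 14.9%. The 6 below were chemoreceptors, cuticular proteins, serine proteases and immune peptides, glutathione S-transferases, cytochrome P450 and odorant binding proteins. With 4 genes that a name pattern alone had matched kept in it, the list of serine proteases and immune peptides had 2 of 43, and its interval (0.568 to 15.8%) contained 14.5%. Intervals cover the counting of genes only, and several lists count genes in shared pathways.

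**Figure D5:**
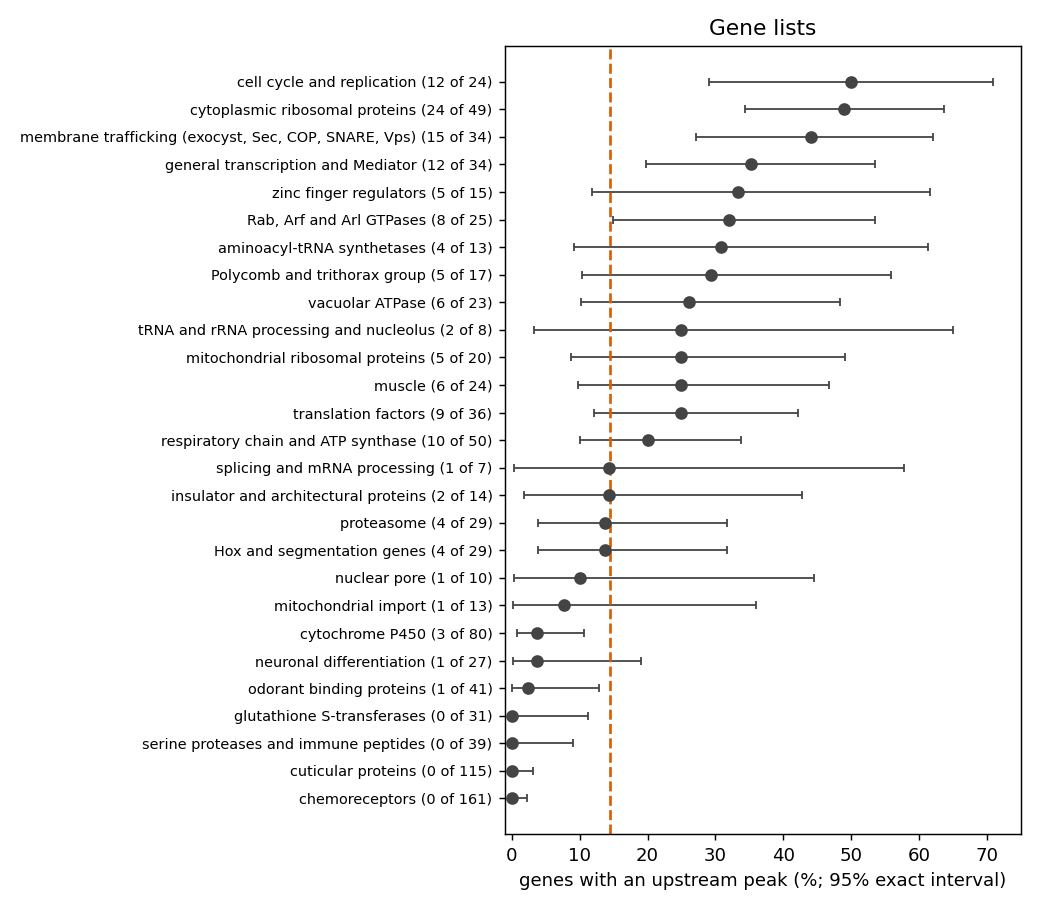
Share of eligible genes with an upstream peak (%, x axis, with 95% exact interval) for 27 gene lists (y axis, with counts), beside the share of 14.5% over all eligible genes (dashed line). Cell cycle and replication (50%) and cytoplasmic ribosomal protein genes (49%) stand at the top and chemoreceptor, cuticular protein, serine protease and glutathione S-transferase genes at 0.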

How the data were processed

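Chromatin immunoprecipitation was measured in 2 biological replicates of 1 group, and the deposited peak lists were the starting point. The authors called peaks on dm6 and kept those at an irreproducible discovery rate (IDR) of at most 0.01, per the deposited file descriptions. Neither the aligner nor the peak caller nor the read depth is stated there. The signal of a peak is the peak caller's value as deposited by the authors, with its scale not stated. Ranked tables deposited by the authors give a global IDR per peak as −log10. A pooled peak took the highest signal among the ranked peaks of a replicate that overlap it by at least 1 bp. Weak peaks inside stronger regions may therefore show a high replicate value.

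Genes came from Ensembl release 115 (annotation 6.54), without transposable elements, with 18277 genes and 23694 TSSs, and sequence from the Release 6 genome, whose chromosome lengths hold all peaks. Eligible genes have a position 1 to 500 bp upstream of a TSS that the rule could accept. Exact intervals are Clopper-Pearson at 95.0% and cover counting error only. Peaks are not replicates of a condition, so no p-value was computed. Motifs (17) were matched on both strands of windows reaching 100 bp to each side of the summit. Promoter windows reached as far around a point 99 bp upstream of the most upstream TSS of each gene. The classification was tested on simulated data. Python 3.11.15, numpy 2.4.6, pandas 2.3.3, scipy 1.17.1 and matplotlib 3.10.9 were used.

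The upstream peaks, gene lists and motifs were chosen with earlier results of these data known. The text names CG3847, the 20 strongest upstream peaks found in all sets, up to 3 per gene list and those at the limits of the rule. From 2 lists, nst and the genes named SP with a number were taken out after their values were seen, since a name pattern alone had matched them. Genes of the Motif 1 sequences, Rtnl1 and the genes with the most unequal replicates were chosen after their values were seen, as was the comparison of replicate balance by distance, motif and base content. Peaks past the threshold in the ranked table but absent from the optimal set were not analysed here.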

Additional observations from a re-analysis of the deposited data

How the results depend on the processing

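Of 51 values under other settings 31 were labelled as close to the main one, 20 as moved and 0 as reversed. For the number of upstream peaks the label was loose. It counted as close to 1611 both 1162 at a global IDR of at most 0.001 and 1215 with replicate 2 left out. Restricting to the stronger 50% of the peaks gave 959 upstream peaks (main 1611), a share of 31.2% of peaks (main 26.2%), a signal ratio of upstream to downstream medians of 1.04 (main 1.60) and 91.0% in both replicate sets (main 62.9%). A global IDR of at most 0.001 gave 30.3%, 1.19 and 84.3%. The conservative set kept all values close. With 1 TSS per gene the share was 20.5% and the ratio 1.52. TSS windows of 200 and 1000 bp moved the median distance from 99 to 70 and 146 bp and the ratio to 1.52 and 1.44. A motif window of 50 bp to each side gave 6.27% with the Motif 1 core (main 10.1%).

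With one replicate left out, the values ranged from 1215 to 1313 for the number, from 27.3 to 30.3% for the share, from 100 to 116 bp for the distance, from 1.37 to 1.48 for the ratio, from 76.8 to 84.4% for presence in the sets and from 8.31 to 12% for the Motif 1 core. With the genes taken out of 2 gene lists kept, an alternative chosen after seeing the data, the list of tRNA and rRNA processing had 3 of 9 (main 2 of 8) and that of serine proteases 2 of 43 (main 0 of 39). The cause of these moves was not tested. The presence in both sets with a replicate left out is overlap of the upstream peaks of one replicate's own set with the other's set. No paired analysis was possible because the series has 1 group. Read depth is not given, so weak peaks that are missing from a set cannot be told from peaks below its detection limit, and signals of different lists share no stated scale.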

Other observations

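Some upstream peaks had very unequal replicates. At Galk, the galactokinase gene, replicate 1 had 137 and replicate 2 had 42.9, with a pooled value of 168 and a summit 38 bp from the TSS. In the other direction, Yod1 had 14.5 in replicate 1 and 63.4 in replicate 2, and Slik, which encodes a protein kinase, had 18.3 and 68.5, with summits 96 and 63 bp from the TSS. The largest log2 ratio, 4.14, was at Rme-8, where a weak pooled peak (69.9) adjoined a stronger one (628) whose signal was read for replicate 1 (342 against 19.4).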
